A study of Homo sapiens with 9 samples.

Results

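Cells in which ELOVL5 had been targeted with the second of the study's guide RNAs (KO#2) were compared with cells given a control guide (sgControl), over all genes. Both groups were ACHN, an established human renal cell carcinoma line, edited with CRISPR/Cas9, and RNA was sequenced from 3 libraries per group. These 6 libraries of the 9 in the series were chosen by their labelled source, and the 3 libraries of the other ELOVL5 guide were left out. The labels state neither whether the KO#2 cells were a clone or a pool, nor whether replicates were separate cultures, so a p-value here reflects the spread among these samples alone, possibly a technical one. The series concerns ELOVL5 in the proliferation and invasion of renal cell carcinoma. Of the 57773 features in the deposited table, 13017 had a mean signal of at least 10 over the 6 libraries and were tested.

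ELOVL5 is an enzyme of the endoplasmic reticulum that adds carbon units to polyunsaturated fatty acids made by the desaturases FADS1 and FADS2. Its products are built into membrane phospholipids and are precursors of eicosanoids. Cas9 cuts DNA within the targeted gene, and repair errors can disrupt the protein while leaving a transcript that is still sequenced.

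The signals were read counts that the authors had quantile-normalized, so every library had the same set of values and the raw depth is not known. KO#2 replicate 1 differed from the rest. Its Pearson correlation with the other KO#2 libraries across tested genes was 0.672 and 0.737, whereas KO#2 replicates 2 and 3 correlated at 0.938 and the sgControl libraries at 0.959 to 0.978. The order of equal values in the table showed that 10257 features had 10 or more reads in KO#2 replicate 1, against 12421 to 13099 in the other 5. A feature with 10 reads had a signal of 55.7 in that library and of 7.56 to 12.6 in the others. Its deviation from the sgControl mean rose with the GC content of the transcript (Spearman's rho 0.757 across genes, which are not independent replicates), where the other 5 libraries had −0.341 to 0.391. Tests and shares are therefore given with all 6 libraries and with the 5 that remain without KO#2 replicate 1, and medians by library. All 9 markers examined for renal carcinoma epithelium were detected, with summed signals of 35208 to 44086 in sgControl and 30528 to 47329 in KO#2. The sums hid opposite moves. CDH1 was lower in every KO#2 library, while EPCAM and KRT18 (3170, 4177 and 2570 against 12200, 8198 and 6262) were higher. For the other markers of the set the groups overlapped. Of 9 leukocyte markers 5 were listed at 0 throughout, including CD3E and LYZ, and the sum was 7.0 to 14.3 in sgControl and 111, 3.33 and 8.44 in KO#2 replicates 1, 2 and 3, the first mostly CD68. Of 8 fibroblast and muscle markers DCN and LUM were at 0 throughout, while the set summed to 380 to 631 in sgControl and to 1759, 428 and 629 in KO#2, mostly ACTA2 (544, 261 and 429 against 1655, 366 and 565). The 4 endothelial markers summed to 18.7 to 25.1 in sgControl and to 18.1, 5.11 and 3.22 in KO#2, mostly VWF, and the red cell set to at most 2.78, with HBB at 0. The part of these markers in any result was not tested.

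The targeted transcript itself was lower in each KO#2 library than in any sgControl library, but the difference did not pass the test. ELOVL5 had signals of 1999, 2713 and 2063 in sgControl and of 434, 1805 and 910 in KO#2. The lowest KO#2 value was that of replicate 1, and replicate 2 came nearest to the sgControl range. The log2 fold change, on log2(signal + 1) as for all fold changes here, was −1.32 (SE 0.525; adjusted p = 0.512 by limma and Benjamini-Hochberg). The 5 libraries without replicate 1 gave −0.80 (SE 0.323; limma adjusted p = 0.223).

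With all 6 libraries 80 genes were called at a limma adjusted p under 0.05, which is 0.615% of those tested, 47 of them higher in KO#2 (0.361%) and 33 lower (0.254%). Without KO#2 replicate 1 there were 535 (4.11%), 225 higher (1.73%) and 310 lower (2.38%), and these included all 80 with the same sign. Called genes had a median absolute log2 fold change of 4.96 with 6 libraries and 2.25 with 5, the smallest being 2.39 and 0.97. At an unadjusted p under 0.05 there were 1113 and 2535 genes, where 650.85 were expected by chance. The 3 KO#2 values lay above all sgControl values in 1243 genes (9.55%) and below them in 1106 (8.50%), or 18.0% together. Without KO#2 replicate 1 these were 2433 (18.7%) and 2262 (17.4%). Of the 535 genes, KO#2 replicate 1 lay beyond the sgControl range on the same side as the other KO#2 libraries in 410, within that range in 58 and beyond it on the opposite side in 67. The counts depended on the libraries. With 1 sgControl library left out the 6-library count of 80 fell to 9, 3 and 4 (replicates 1, 2 and 3), and it was 54 without KO#2 replicate 2 and 9 without KO#2 replicate 3. With the trend on GC content removed from each library (added once the data had been seen), 501 genes were called with 6 libraries, among them all 80.

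**Figure D1:**
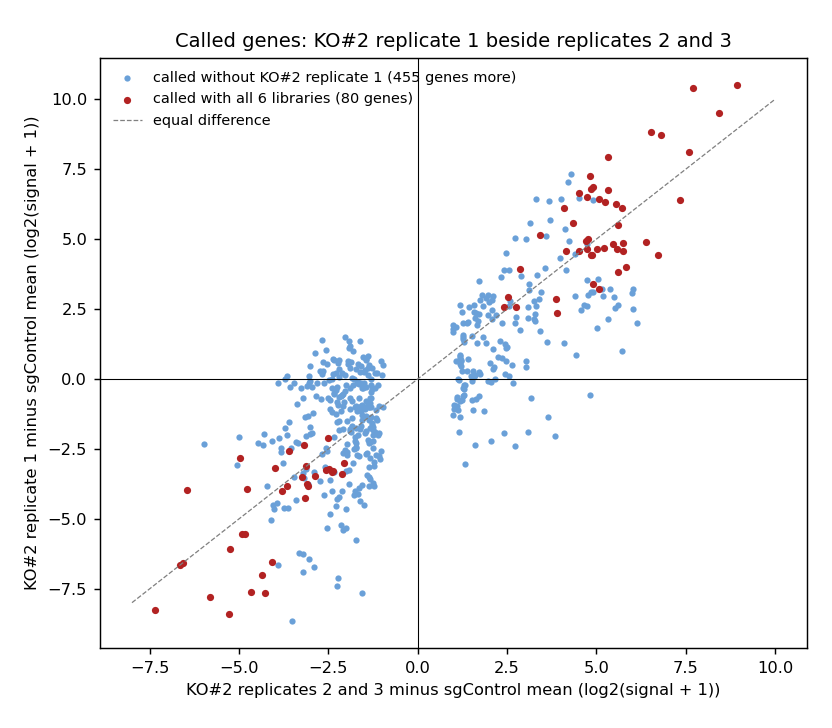
Difference of KO#2 replicate 1 from the sgControl mean (vertical axis, log2(signal + 1)) against that of KO#2 replicates 2 and 3 (horizontal axis, same scale) for genes called with all 6 libraries (red, 80 genes) or only without replicate 1 (blue, 455 genes more). The red genes lie in the corners where the libraries share a sign, and 67 of the 535 genes had replicate 1 beyond the sgControl range on the opposite side.

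Some genes had no signal in one group. They were picked for that pattern and passed the minimum signal through the other group, so their levels are described with no test. Of the tested genes, 29 were listed at 0 in all sgControl libraries, 27 of them with a gene symbol, and 2 were listed at 0 in all KO#2 libraries. MYADM, a MARVEL-domain protein of the plasma membrane, went from 0 in every sgControl library to signals of 1461, 301 and 799 with KO#2. GYPC, which anchors the red cell membrane to its skeleton, went from 0 throughout sgControl to 722, 273 and 444. HYDIN, a protein of motile cilia, went from 0 to 280, 161 and 232. In these 3 genes KO#2 replicate 1 was the highest and replicate 2 the lowest of the KO#2 libraries. CACNG7, an accessory subunit of calcium channels and glutamate receptors, had 453, 32.4 and 252, and TRPS1, a GATA-type repressor, had 84.2, 127 and 207, both against 0 in sgControl. The opposite pattern was seen for SALL1, a zinc finger factor of kidney development, with 117, 96.0 and 90.8 in sgControl and 0 in each KO#2 library. CBR1, a carbonyl reductase, had 71.9, 108 and 106 in sgControl and 0 in each KO#2 library.

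Promoters of 3 of these on or off genes are shown because they show how dense CG dinucleotides, the usual sites of DNA methylation in vertebrates, are at genes listed at 0 in 1 group. Each runs from 250 bases before to 50 after the RefSeq start (GRCh38.p14, plus strand, 5′ to 3′), with CG in capitals.
MYADM: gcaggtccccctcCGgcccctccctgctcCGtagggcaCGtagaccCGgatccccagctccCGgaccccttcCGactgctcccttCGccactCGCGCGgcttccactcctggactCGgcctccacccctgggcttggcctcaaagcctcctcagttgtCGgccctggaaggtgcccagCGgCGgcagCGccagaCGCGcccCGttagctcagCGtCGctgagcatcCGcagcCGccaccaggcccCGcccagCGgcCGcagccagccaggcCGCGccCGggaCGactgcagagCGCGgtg
GYPC: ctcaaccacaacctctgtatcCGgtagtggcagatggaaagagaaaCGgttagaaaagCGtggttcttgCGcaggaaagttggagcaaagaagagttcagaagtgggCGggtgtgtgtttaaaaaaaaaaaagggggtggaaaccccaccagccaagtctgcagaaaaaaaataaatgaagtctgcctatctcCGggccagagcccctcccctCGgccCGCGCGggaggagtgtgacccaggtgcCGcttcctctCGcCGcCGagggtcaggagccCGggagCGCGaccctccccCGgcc
CBR1: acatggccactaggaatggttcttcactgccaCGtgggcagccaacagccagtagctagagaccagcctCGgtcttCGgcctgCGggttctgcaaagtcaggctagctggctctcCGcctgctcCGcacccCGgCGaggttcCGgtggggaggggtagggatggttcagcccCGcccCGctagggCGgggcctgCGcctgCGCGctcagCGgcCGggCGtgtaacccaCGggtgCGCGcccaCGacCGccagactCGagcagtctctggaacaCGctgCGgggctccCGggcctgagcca
The MYADM sequence (chr19:53866121-53866420) held 31 CG and was 73.7% G or C, that of GYPC (chr2:126655908-126656207) held 18 and was 57.7%, and that of CBR1 (chr21:36069774-36070073) held 27 and was 69.3%. RefSeq promoters were matched for 16 of the genes at 0 in sgControl, of which 13 (81.3%) held at least 15 CG, with a median of 23.5. Over all 9994 tested genes with a promoter 83.9% held at least 15, and the median was 27. The share in the genes at 0 in sgControl was thus close to that of all genes. Methylation was not measured in these data.

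Genes that rose and had listed values in both groups included enzymes and membrane proteins. ZNF469, a zinc finger protein of the cornea and skin matrix, had signals of 0.556, 0.111 and 0.556 in sgControl, values that features without a read also had there, and 1871, 88.4 and 943 in KO#2. KO#2 replicate 2 was far below the other KO#2 libraries but above every sgControl library. ZNF469 passed the minimum signal through KO#2 alone, so its levels are described with no test. DYSF, or dysferlin, which repairs the membrane of muscle fibres, had 14.6, 11.8 and 20.7 in sgControl and 2492, 207 and 1028 in KO#2 (log2 fold change 5.64, SE 0.828, limma adjusted p = 0.0279; 4.83 and 0.00741 without KO#2 replicate 1). PADI2, which turns arginine in proteins to citrulline, had 247, 227 and 240 in sgControl and 11438, 3831 and 6117 in KO#2 (4.75, SE 0.451, 0.00496; 4.34 and 0.000335). In all of these KO#2 replicate 1 was the highest library. It was the lowest KO#2 library for PLXDC2, a plexin-domain membrane protein, which had 64.4, 47.3 and 33.2 in sgControl and 243, 686 and 727 in KO#2 (log2 fold change 3.38, limma adjusted p = 0.0377; 3.89 and 0.00146 without replicate 1). ST3GAL1, a sialyltransferase of O-linked glycans, had 89.2, 101 and 87.4 against 707, 444 and 645 (2.65, 0.0281; 2.52 and 0.00369). SLCO4A1, an organic anion transporter, had 254, 495 and 334 against 2065, 1433 and 2396 (2.46, 0.0411; 2.41 and 0.0106). With MYADM these were the 7 higher called genes whose mean signal exceeded the median, 256. MYADM and ZNF469 are in the counts that follow, but passed the minimum signal through KO#2 alone, so their calls are no support. All 7 kept their sign, and 7, 5 and 2 were called without KO#2 replicate 1, 2 and 3, and 2, 1 and 1 without sgControl replicate 1, 2 and 3.

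**Figure D2:**
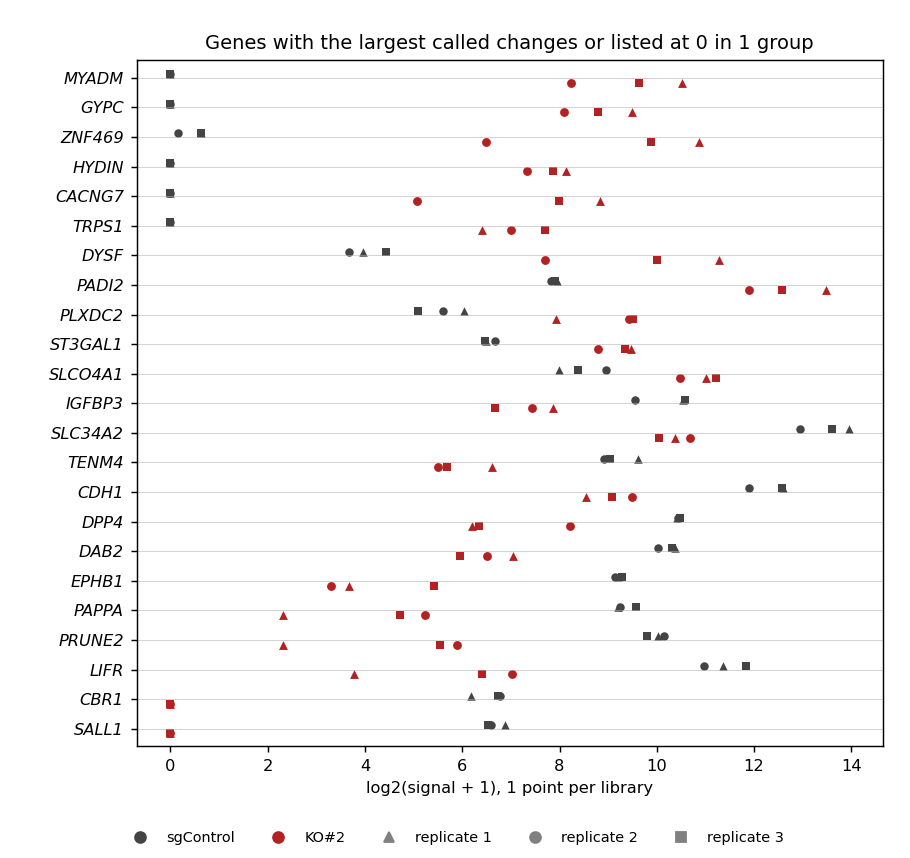
Signal of each library on log2(signal + 1) (horizontal axis) for the genes at 0 in 1 group and for the called genes with the largest fold changes (rows), with sgControl in grey, KO#2 in red and the shape giving the replicate. The groups do not overlap in any of these rows; MYADM, GYPC, HYDIN, CACNG7 and TRPS1 lie at 0 in sgControl, and SALL1 and CBR1 lie at 0 in KO#2.

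Genes that fell included receptors, adhesion molecules and a phosphate cotransporter. The 10 with the largest fold change of the 16 lower called genes above the median signal are described. LIFR, the receptor for leukaemia inhibitory factor, had signals of 2617, 2016 and 3645 in sgControl and 12.7, 129 and 83.7 in KO#2 (log2 fold change −5.65, SE 0.779, limma adjusted p = 0.0232; −4.67 and 0.000432 without KO#2 replicate 1). PRUNE2, a BNIP2-like protein, had 1048, 1127 and 886 against 4.0, 58.8 and 45.9 (−5.40, 0.0355; −4.26 and 0.000335). PAPPA, a protease that cleaves carriers of insulin-like growth factors, had 586, 607 and 764 against 4.0, 36.9 and 25.4 (−5.24, 0.0253; −4.36 and 0.000398). In each of these 3 KO#2 replicate 1 was the lowest, at a signal below that of 10 reads there, so its depth limits these values most. EPHB1, a receptor for ephrins, had 590, 566 and 624 in sgControl and 11.8, 8.89 and 42.0 in KO#2 (log2 fold change −5.08, limma adjusted p = 0.0140; −4.85 and 0.00402). DAB2, the clathrin adaptor that works with megalin in the proximal tubule, had 1320, 1036 and 1272 against 130, 90.0 and 61.1 (−3.73, SE 0.421, 0.0108; −4.0 and 0.000398). DPP4, a peptidase of the brush border, had 1360, 1393 and 1431 against 72.1, 297 and 80.8 (−3.53, 0.0354; −3.16 and 0.0125). CDH1, or E-cadherin, had 6183, 3831 and 6059 against 371, 716 and 542 (−3.32, SE 0.403, 0.0143; −3.07 and 0.00205). The sgControl values of CDH1 were thus between 3831 and 6183, and no KO#2 value exceeded 716. TENM4, a teneurin, had 779, 482 and 525 against 97.3, 44.0 and 50.8 (log2 fold change −3.25, limma adjusted p = 0.0266; −3.59 and 0.00115). SLC34A2, a sodium phosphate cotransporter, had 15791, 7853 and 12505 against 1326, 1641 and 1056 (−3.13, 0.0159; −3.14 and 0.00369). IGFBP3, the main carrier of insulin-like growth factors in blood, had 1486, 754 and 1530 against 232, 171 and 102 (−2.90, 0.0386; −3.17 and 0.0049). The calls of these 10 genes depended on which library was left out: all 10 were called without KO#2 replicate 1 and 8 without replicate 2, but 1 without KO#2 replicate 3 and 0 without any 1 sgControl library (limma adjusted p from 0.0599 to 0.291). The sign was kept in every such fit. Once KO#2 replicate 1 was set aside, 9, 10 and 9 of the 10 were called with sgControl replicate 1, 2 and 3 also left out. Leaving out a further KO#2 library leaves 1 in that group, so such fits are not counted.

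FBXL7, a subunit that selects targets for ubiquitin ligases, was chosen after its values were seen, as the lower gene with the largest called fold change. Its signals were 341, 310 and 270 in sgControl and 0, 1.0 and 0.778 in KO#2, the last values being at or near those of features without a read. It passed the minimum signal through sgControl alone, so its levels are described with no test.

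Some genes with high signals were called only when KO#2 replicate 1 was set aside, although all 3 KO#2 libraries lay on the same side of the sgControl range. Above the median signal 37 such genes were higher and 82 lower. COLEC10, a collectin that binds sugars, had signals of 71.9, 41.9 and 114 in sgControl and 230, 737 and 790 in KO#2 (log2 fold change without replicate 1 3.42, SE 0.407, limma adjusted p = 0.00483; with 6 libraries 0.101). TGM2, a transglutaminase that crosslinks proteins, had 969, 983 and 521 against 10278, 3062 and 11151 (2.88, 0.0265; 0.0523). PLAT, the tissue plasminogen activator, had 59.9, 240 and 65.3 against 683, 526 and 663 (2.58, 0.0478; 0.106), with sgControl replicate 2 nearest to KO#2. HDAC9, a histone deacetylase, had 59.8, 156 and 85.9 against 206, 547 and 516 (log2 fold change 2.50, limma adjusted p = 0.0152; 0.226). HIST3H2A, a histone gene whose reads may be shared with near-identical copies, had 93.9, 109 and 72.1 against 2082, 1013 and 250 (2.46, 0.0471; 0.126). AMIGO2, an adhesion protein, had 906, 464 and 859 against 1206, 2299 and 5921 (2.37, 0.0281; 0.346). The KO#2 libraries of these last genes were far apart from each other.

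Of the lower genes of this kind, EDN2, or endothelin-2, had 1857, 1180 and 2090 in sgControl and 297, 375 and 52.4 in KO#2 (log2 fold change without replicate 1 −3.55, SE 0.706, limma adjusted p = 0.0342; with 6 libraries 0.115). SCN9A, a voltage-gated sodium channel, had 1464, 755 and 1219 against 9.44, 132 and 165 (−2.90, 0.00369; 0.130). UPK3B, a uroplakin, had 488, 521 and 760 against 382, 105 and 60.3 (−2.84, 0.00447; 0.327). MDGA1, an anchored adhesion protein, had 426, 426 and 395 against 376, 54.8 and 60.9 (−2.83, 0.00147; 0.446), so that replicate 1 was close to sgControl. SLC4A4, the basolateral bicarbonate transporter of the proximal tubule, had 886, 905 and 870 against 54.0, 259 and 109 (−2.39, 0.0118; 0.0734). AFF3, a nuclear protein of transcription complexes, had 1235, 892 and 939 against 240, 107 and 363 (−2.35, 0.0345; 0.115). Of these 12 genes all 12 were also called with 6 libraries after the GC trend was removed. They were picked for calls without replicate 1, and that correction was added once the data had been seen. The 12 calls are therefore no independent support. With KO#2 replicate 1 and 1 sgControl library left out, the calls fell to between 1 and 5 of the 6 higher genes and between 3 and 5 of the 6 lower genes.

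In a further 67 genes called without replicate 1 that library lay on the other side of sgControl. MDM2, the ubiquitin ligase of p53, had 2412, 2290 and 2461 in sgControl and 1112, 4625 and 5853 in KO#2 (log2 fold change 1.12 without replicate 1, limma adjusted p = 0.0319; 0.38 and 0.853 with it). IARS, an isoleucine tRNA synthetase, had 4348, 4661 and 4903 against 1874, 8940 and 9308 (0.98, 0.0472; 0.22 and 0.915). SLC39A14, a zinc and iron importer, had 1654, 2135 and 1917 against 1104, 4082 and 4597 (1.19, 0.0273; 0.54 and 0.795). CLDN16, a claudin of the renal tubule, had 2246, 2878 and 3272 against 733, 6441 and 5823 (1.15, 0.0420; 0.13 and 0.963). With 6 libraries the sign of 3 of these 4 genes turned when a single other library was left out: MDM2 had −0.073 without KO#2 replicate 3, IARS −0.15 and −0.18 without KO#2 replicate 2 or 3, and CLDN16 −0.42, −0.35 and −0.02 without KO#2 replicate 2 or 3 or sgControl replicate 1.

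Gene groups were described with 36 lists, of which 1141 of 1425 genes were tested. They held 20 genes called with 6 libraries and 81 called with 5. Genes that passed the minimum signal through 1 group alone are in these counts and in the shares below, and their calls are no support. All 20 kept their sign with any library left out, but 20, 15 and 2 were called without KO#2 replicate 1, 2 and 3, and 2, 0 and 0 without sgControl replicate 1, 2 and 3. Of the 81, between 26 and 63 were called when 1 sgControl library beside KO#2 replicate 1 was left out. Over all genes tested the median log2 fold change was −0.01 with 6 libraries and 0.03 with 5.

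Across the 5 lists of lipid genes, which include the pathway of the targeted enzyme, 1 of 105 tested genes was called with 6 libraries and 8 (7.62%) with 5, where all genes had 4.11%. FABP3 and PLA2G4A are in these counts but passed the minimum signal through KO#2 alone, so their calls are no support. Of 15 tested genes of fatty acid elongation and desaturation 0 were called with 6 libraries (0.615% of all genes) and 2 were higher with 5 (13.3% of the list), and the medians were −0.18 and −0.06. ELOVL6, which elongates saturated chains, had 50.2, 115 and 53.4 in sgControl and 64.7, 300 and 234 in KO#2 (log2 fold change 1.96 without replicate 1, limma adjusted p = 0.0395; 1.28 and 0.646 with it). HSD17B12, the reductase of the elongation cycle, had 354, 337 and 297 against 201, 769 and 639 (1.09, 0.0419; 0.49 and 0.807). Replicate 1 lay inside the sgControl range for the first gene and below it for the second. Of 33 sterol and fatty acid synthesis genes 0 passed in either fit (medians 0.09 and 0.07). HMGCS1, of the mevalonate pathway, had 1132, 2109 and 643 against 125, 1464 and 424 (limma adjusted p = 0.700 and 0.676). Among 16 genes of lipid droplets and triglycerides 1 rose with 6 libraries, and 2 rose and 1 fell with 5 (18.8% of the list; medians 0.21 and 0.25). FABP3, which carries fatty acids in muscle, had 0, 0.444 and 0 against 125, 43.4 and 22.9, and passed the minimum signal through KO#2 alone. FITM2, which helps form lipid droplets, had 67.9, 67.8 and 67.1 against 359, 157 and 166 (log2 fold change 1.24 without replicate 1, limma adjusted p = 0.0461; 1.63 and 0.278 with it). PLIN3, a droplet coat protein, had 1490, 1256 and 1235 against 1472, 615 and 709 (−1.0, 0.0478; −0.62 and 0.740). Of 22 fatty acid oxidation genes 0 passed with 6 libraries and 1 fell with 5 (4.55%, near the 4.11% of all genes; medians 0.03 and 0.04). That gene was ACAA2, the last enzyme of mitochondrial beta oxidation, with 148, 169 and 192 against 0, 54.2 and 22 (−2.25, limma adjusted p = 0.0253; −3.97 and 0.340). Of 19 genes of phospholipid remodelling and eicosanoids 0 passed with 6 libraries, and 1 rose and 1 fell with 5 (medians −0.01 and −0.16). PLA2G4A, which frees arachidonic acid from membranes, had 2.56, 7.56 and 12.7 against 32.2, 64.6 and 76.3. It passed the minimum signal through KO#2 alone, so its levels are described with no test. LPCAT1, which acylates lysophosphatidylcholine, had 3014, 2995 and 2378 against 799, 1082 and 749 (−1.63, limma adjusted p = 0.0141, and −1.68 and 0.0910 with 6 libraries).

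Epithelial and kidney identity genes changed in both directions. Of 31 genes of epithelial junctions and keratins 2 rose and 1 fell with 6 libraries (9.68%, against 0.615% of all genes), and 5 rose and 3 fell with 5 (25.8%, against 4.11%). These counts include EPCAM and SPINT1, and with 5 libraries also DSC2 and ESRP1. Those genes passed the minimum signal through KO#2 alone, so their calls and their part in these shares are no support. EPCAM, an epithelial adhesion protein, had 4.89, 4.89 and 5.0 in sgControl and 93.7, 329 and 349 in KO#2 (log2 fold change 5.23; 5.84 without replicate 1). SPINT1, an inhibitor of epithelial serine proteases, had 3.0, 3.56 and 0 against 225, 52.7 and 146 (5.53; 5.08). DSC2, a desmosomal cadherin, went from 0 throughout sgControl to 3.0, 75.2 and 65.4. ESRP1, a splicing regulator of epithelial cells, had 7.33, 0.444 and 0 against 11.8, 43.4 and 66.8. These genes were higher in KO#2 and passed the minimum signal through KO#2, so they are described with no test. CDH1 of the same list fell. Of 26 mesenchymal genes 0 passed with 6 libraries and 2 fell with 5 (7.69%, against 4.11% of all genes). FN1, or fibronectin, had 4636, 2700 and 2777 against 1009, 939 and 1242 (−1.59, limma adjusted p = 0.0281; −1.63 and 0.130). TGFBI, a matrix protein induced by TGF-beta, had 1373, 1530 and 924 against 645, 521 and 266 (−1.74, 0.0350; −1.48 and 0.304). Of 21 genes on the list of proximal tubule transport and endocytosis 3 fell with 6 libraries (14.3%), and 1 rose and 4 fell with 5 (23.8%). Such a listing does not show that a gene acts in the tubule. The 3 were SLC34A2, DAB2 and PDZK1, a scaffold for brush border transporters, which had 178, 239 and 457 against 19.0, 30.9 and 30.1 (−3.32, 0.0325; −3.10 and 0.00761). Among 17 nephron lineage factors SALL1 fell, and with 5 libraries also TFAP2A, with 601, 444 and 550 against 307, 212 and 177 (−1.44, limma adjusted p = 0.0212; −1.22 and 0.352 with 6). Of 29 HOX genes 0 passed in either fit. HOXD8 and HOXA5, developmental patterning factors, had 24.7, 20.4 and 38.6 against 0, 11.8 and 30.0, and 16.7, 18.0 and 22.2 against 0, 17.3 and 9.0, with the 0 of each in replicate 1 (limma adjusted p from 0.575 to 0.712 over both fits).

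Matrix genes that passed were mostly lower. Of 32 collagens, laminins and matrix proteins 2 fell with 6 libraries (6.25%), and 1 rose and 6 fell with 5 (21.9%), and the medians were −0.41 and −0.32. All 3 KO#2 libraries lay below sgControl in 8 of them (25.0%, against 8.50% of all genes) and above in 0. Without KO#2 replicate 1 there were 13 below (40.6%, against 17.4%) and 2 above. THBS1, thrombospondin-1, had 32238, 36866 and 36866 in sgControl and 3698, 5746 and 6043 in KO#2 (log2 fold change −2.80, SE 0.347, limma adjusted p = 0.0148; −2.58 and 0.00198 without replicate 1). COL4A1, a chain of basement membrane collagen, had 13065, 14495 and 15456 against 1786, 2728 and 4209 (−2.39, 0.0410; −2.08 and 0.00661). COL4A3 and COL4A4, chains of the glomerular form, were among those lower with 5 libraries. COL4A4 had 93.7, 76.0 and 149 against 6.67, 29.4 and 22.8 (−1.94, limma adjusted p = 0.0331, and 0.187 with 6 libraries). COL4A3 had 30.8, 32.2 and 46.4 against 2.67, 7.56 and 5.11. It is in the counts above but passed the minimum signal through sgControl alone, so its levels are described with no test. Of 28 matrix proteases and inhibitors DPP4 fell with 6 libraries (3.57%), and 3 rose and 3 fell with 5 (21.4%). MMP7, or matrilysin, had 44.1, 18.1 and 17.9 against 0, 1.44 and 0, and TIMP4, an inhibitor of such proteases, 0, 0 and 1.56 against 54.8, 19.2 and 27.2. Each was near 0 in 1 group and passed the minimum signal through the other, so both are described with no test. Of 30 integrins and tetraspanins and related adhesion genes 1 rose with 6 libraries, and 1 rose and 1 fell with 5 (6.67%, against 4.11% of all genes). CDH13, T-cadherin, had 42.7, 18.7 and 26.4 against 205, 371 and 474 (3.53, SE 0.527, limma adjusted p = 0.0281; 3.87 and 0.00309), and L1CAM, a neural adhesion molecule, 11151, 9439 and 10645 against 6441, 3373 and 5058 (−1.33, 0.0309; −1.12 and 0.350 with 6).

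Receptor and signalling genes held scattered calls. In the interleukin-6 family, with 13 tested members, 1 rose and 1 fell with 6 libraries (15.4%, against 0.615% of all genes) and 1 rose and 2 fell with 5 (23.1%, against 4.11%). IL31RA, a receptor subunit for interleukin-31, had 4.89, 4.89 and 5.11 in sgControl and 177, 409 and 618 in KO#2 (log2 fold change 5.90; 6.4 without replicate 1). It passed the minimum signal through KO#2 alone, so its levels are described with no test. Its call is the 1 that rose in both shares above and is no support. OSMR, the partner subunit of IL31RA, had 4367, 3518 and 3771 against 435, 1344 and 1702 (−1.35 without replicate 1, limma adjusted p = 0.0193; −1.95 and 0.218 with 6), while LIFR, also in this list, fell. Of 45 semaphorins, ephrins and guidance genes 2 fell with 6 libraries (4.44%), and 1 rose and 4 fell with 5 (11.1%). SEMA5A, a semaphorin, had 6594, 3616 and 4733 against 484, 1218 and 681 (−2.71, limma adjusted p = 0.0406; −2.41 and 0.0101). EPHA4, an ephrin receptor, had 40.9, 36.0 and 23.3 against 3.0, 0 and 0, and passed the minimum signal through sgControl alone. NTN1, the guidance cue netrin-1, had 106, 186 and 75.0 against 900, 534 and 464 (2.12, limma adjusted p = 0.0255; 2.40 and 0.0863 with 6). Of 28 WNT genes 0 passed with 6 libraries, and 1 rose and 3 fell with 5 (14.3%). FZD3, a WNT receptor, had 23.2, 7.33 and 28 against 43.6, 223 and 220 (3.63, limma adjusted p = 0.0122; 2.85 and 0.239), and WNT5A, a ligand, 98.8, 111 and 113 against 15.6, 20.8 and 33.8 (−1.97, 0.0195; −2.22 and 0.126). TCF7L1 and WNT7B had −3.10 and −1.40 with 5 libraries (limma adjusted p = 0.00673 and 0.0211), with replicate 1 inside the sgControl range for TCF7L1 and above it for WNT7B. Of 23 FOXO genes 1 fell with 6 libraries, and 1 rose and 1 fell with 5. RHOB, a small GTPase of endosomes, had 6148, 4590 and 4459 against 1158, 881 and 859 (−2.39, SE 0.348, limma adjusted p = 0.0279; −2.52 and 0.00205), and KLF2, a zinc finger factor, 68.1, 81.2 and 47.9 against 737, 228 and 201 (1.72, 0.0271; 2.31 and 0.170). Of 20 receptor tyrosine kinases 0 passed with 6 libraries and 1 fell with 5, FGFR2, with 2855, 1614 and 3248 against 392, 838 and 396 (−2.09, 0.0307; −2.28 and 0.0863). Of 41 genes of PI3K, AKT, mTOR and STAT3 signalling 0 passed with 6 libraries and 1 rose with 5, EIF4EBP1, a repressor of translation, with 553, 556 and 631 against 1872, 1089 and 1205 (0.98, 0.0469; 1.22 and 0.308).

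Lists of stress genes had no call with 6 libraries, and some of their members rose in the 5-library fit. In the list of 39 ATF4 targets, serine synthesis genes and tRNA synthetases 0 passed with 6 libraries and 4 rose with 5 (10.3%; medians 0.66 and 0.75), and 15 had all KO#2 libraries above sgControl, or 38.5% of the list against 9.55% of all genes. Without KO#2 replicate 1 these shares were 61.5% and 18.7%. The median deviation of the list from the sgControl mean was −0.10, −0.19 and 0.26 in the sgControl libraries and 0.66, 0.64 and 0.83 in KO#2, so that the groups did not overlap on this measure. TRIB3, a pseudokinase that restrains AKT, had 504, 470 and 669 in sgControl and 3997, 1544 and 2674 in KO#2 (log2 fold change 1.91 without replicate 1, limma adjusted p = 0.0147; 2.23 and 0.0771 with it). SESN2, a sensor of leucine, had 531, 358 and 458 against 2653, 985 and 1444 (1.43, 0.0311; 1.81 and 0.168), and SLC7A11, the cystine importer, 112, 163 and 210 against 179, 499 and 567 (1.76, 0.0238; 1.23 and 0.582). Of 32 p53 targets 0 passed with 6 libraries and 4 rose with 5 (12.5%; medians 0.54 and 0.57), and 9 lay wholly above sgControl (28.1%) and 0 below, or 14 (43.8%) and 0 without KO#2 replicate 1. AEN, an exonuclease, had 671, 629 and 732 against 2576, 1318 and 1356 (0.98, limma adjusted p = 0.0434; 1.30 and 0.304). TNFRSF10B, a death receptor for TRAIL, had 1656, 1650 and 1732 against 2698, 3503 and 4256 (1.20, 0.0233; 1.03 and 0.373). The others of the 4 were SESN2, which both lists hold, and MDM2. Of 40 apoptosis genes 0 passed with 6 libraries, and 2 rose and 1 fell with 5 (7.5%, against 4.11% of all genes). The TRAIL receptors TNFRSF10B and TNFRSF10A rose, the latter with 275, 370 and 289 against 428, 641 and 806 (1.21, 0.0389; 0.97 and 0.551). The survival protein BCL2 fell, with 1243, 865 and 997 against 208, 446 and 213 (−1.73, 0.0337; −1.92 and 0.124).

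Of 28 genes of the unfolded protein response 0 passed in either fit, and the list's median deviation was −0.85, 0.15 and 0.85 in KO#2 replicates 1, 2 and 3 against −0.29 to 0.34 in sgControl. CREB3L1 and SDF2L1 had 3.56, 4.0 and 0 against 57.8, 2.33 and 5.89, and 45.8, 152 and 61.4 against 252, 89.2 and 271 (limma adjusted p from 0.409 to 0.722). Of 36 NRF2, glutathione and iron genes 0 passed with 6 libraries and 3 rose with 5 (8.33%, against 4.11% of all genes). These were SLC7A11, SLC39A14 and STEAP2, a metal reductase with 41.8, 43.2 and 61.6 against 62.1, 198 and 222 (log2 fold change 2.10 without replicate 1, limma adjusted p = 0.0115; 1.52 and 0.486). Of 42 hypoxia and glycolysis genes 0 passed with 6 libraries and 1 rose with 5, PDK1, which turns off pyruvate dehydrogenase, with 85.1, 132 and 88.4 against 107, 262 and 307 (1.5, 0.0350; 1.03 and 0.635). Of 31 immediate early and heat shock genes 0 passed with 6 libraries, and 2 rose and 1 fell with 5 (9.68%, against 4.11% of all genes). DUSP4, a phosphatase that turns off ERK, had 0, 0 and 0 against 86.4, 12.9 and 17.4, and passed the minimum signal through KO#2 alone. DUSP6, another such phosphatase, had 95, 119 and 72.0 against 424, 348 and 231 (limma adjusted p = 0.0386; 0.165 with 6). EGR1, an immediate early factor, had 398, 160 and 166 against 424, 25.3 and 34.0 (−2.86, 0.0140; −1.59 and 0.718), with the KO#2 replicate 1 value above sgControl.

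Genes of cell growth and immunity had few or no calls. Of 52 mitosis genes, 44 DNA replication genes and 29 cyclins, kinases and inhibitors 0 were called in either fit. The mitosis list differed more within groups than between them: its median deviation from the sgControl mean was −0.58, 1.13 and −0.55 in the sgControl libraries and −1.54, 0.84 and −1.40 in KO#2, so that replicate 2 was the highest in both groups. CENPE, a kinetochore motor, had 171, 709 and 233 in sgControl and 6.44, 268 and 111 in KO#2 (limma adjusted p = 0.644 and 0.529), and HMMR, a spindle protein, 127, 665 and 188 against 3.44, 450 and 90.8 (0.738 and 0.876). CDT1, which licenses DNA replication, had 567, 708 and 590 against 3071, 840 and 608 (limma adjusted p = 0.732 and 0.705). CDKN3 and E2F8 of the cyclin list had 80.8, 172 and 102 against 0, 164 and 30.8, and 46.4, 167 and 24.4 against 11.8, 59.2 and 6.0 (limma adjusted p from 0.469 to 0.696). Of 35 interferon-stimulated genes 0 were called, and 8 lay wholly below sgControl (22.9% against 8.50% of all genes), or 12 without KO#2 replicate 1 (34.3% against 17.4%). Their median deviation was −1.04, −0.18 and −0.10 in KO#2 replicates 1, 2 and 3, so the library that stood apart set most of the 6-library median of −0.65, which was −0.15 without it. IFIT2, an RNA-binding effector, had 18.0, 14.6 and 29.4 against 0, 7.78 and 9.89 (limma adjusted p = 0.600 and 0.260). Of 24 genes of MHC class I presentation 0 were called. ULBP2, a stress ligand, had 10.4, 37.2 and 3.11 against 15.4, 51.7 and 24.3, and PSMB10, an immunoproteasome subunit, 217, 190 and 122 against 837, 265 and 144 (limma adjusted p from 0.371 to 0.830). Of 27 NF-kB targets and chemokines CCL2 fell with 6 libraries, and CCL28 as well with 5. CCL2, which draws in monocytes, had 302, 323 and 391 against 0, 15.6 and 3.56. It passed the minimum signal through sgControl alone, so its levels are described with no test. CCL28, a mucosal chemokine, had 204, 214 and 171 against 17.0, 69.6 and 74.4 (log2 fold change −1.43, limma adjusted p = 0.0274, and −2.10 and 0.282 with 6 libraries).

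Of 29 ion channel genes 1 rose with 6 libraries (3.45%, against 0.615% of all genes), and 2 rose and 4 fell with 5 (20.7%, against 4.11%). KCNN4, a calcium-activated potassium channel, had 9.89, 26.3 and 16.4 in sgControl and 614, 129 and 262 in KO#2 (log2 fold change 4.0, limma adjusted p = 0.0410; 3.42 and 0.0111 without replicate 1). CACNA1H, a T-type calcium channel, had 518, 189 and 654 against 217, 18.2 and 75.2 (−3.39, limma adjusted p = 0.0345; −2.55 and 0.389 with 6). Of 48 lysosomal genes 1 rose in both fits, FUCA2, a secreted fucosidase, with 21.4, 9.67 and 10 against 447, 383 and 365 (4.85, SE 0.493, limma adjusted p = 0.00502; 4.76 and 0.00154). Its 3 KO#2 libraries were close to each other, the one that stood apart included. Of 77 cytosolic ribosomal protein genes 0 passed with 6 libraries and 1 rose with 5, RPLP1, a stalk protein, with 8044, 5613 and 7316 against 12505, 15456 and 15791 (1.18, 0.0420; 1.07 and 0.327). Of 70 nuclear genes of the respiratory chain 0 passed in either fit. NDUFS4 of complex I and SDHA of complex II had 130, 138 and 175 against 18.8, 116 and 127, and 2149, 3962 and 1937 against 1349, 1272 and 986 (limma adjusted p from 0.0991 to 0.728).

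**Figure D3:**
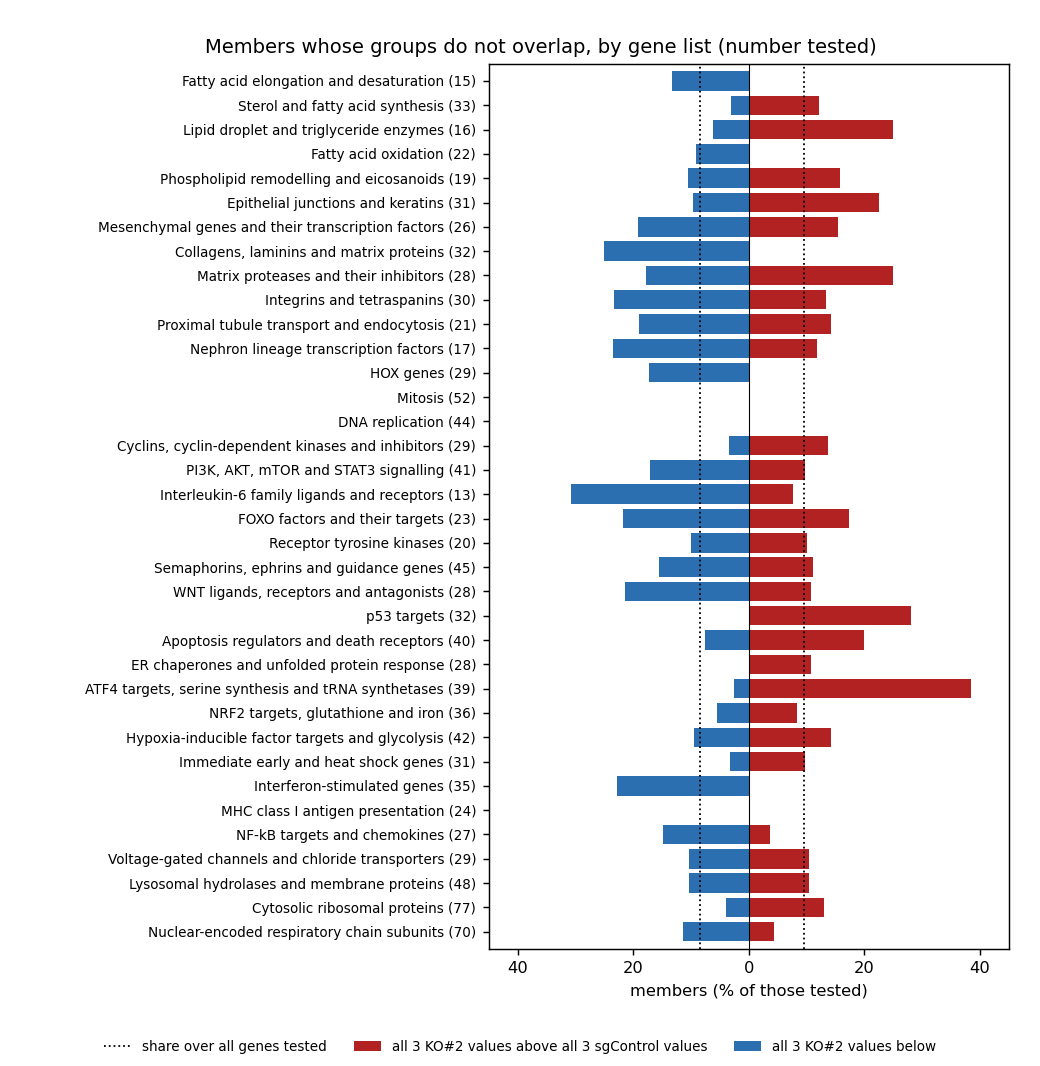
Share of the tested members of each gene list (rows, number tested in brackets) whose 3 KO#2 values all lay above (red, to the right) or below (blue, to the left) the 3 sgControl values, with the shares over all genes tested as dotted lines (9.55% above, 8.50% below). The list of ATF4 targets has 38.5% above, and the mitosis, DNA replication and MHC class I lists have 0 genes on either side.

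Genes also shifted together along chromosomes, which was examined for the 12331 tested genes that a RefSeq table places. As deposited the medians of KO#2 replicate 1 did not track those of the other libraries, for example −1.03 on chromosome 5, where the others had −0.01 and −0.04. With the GC trend of each library removed, as above, the 3 KO#2 libraries came closer to each other on several chromosomes, while chromosome 5 had −0.24, −0.11 and −0.05. Shares of genes wholly above or below sgControl are of the signals as deposited. On chromosome 20 the median difference from the sgControl mean was 0.58, 0.53 and 0.56 in KO#2 replicates 1, 2 and 3, and 36.4% of its 341 tested genes lay wholly above sgControl against 9.55% of all genes. On chromosome 15 it was 0.39, 0.35 and 0.37 (19.6% above), and on chromosome 8 it was 0.22, 0.40 and 0.34 (16.7% above). Chromosome 16 had 0.14, 0.24 and 0.21 (16.7% above). Lower medians were found on chromosome 2, with −0.29, −0.24 and −0.19 (19.6% of genes wholly below, against 8.50% of all genes), and on chromosome 7, with −0.25, −0.23 and −0.24 (15.6% below). On chromosome 5 the share wholly below was 16.1%. Without KO#2 replicate 1 the shares were 51.0% above on chromosome 20, 40.3% on chromosome 15 and 43.5% on chromosome 8 (18.7% of all genes), and 28.9% below on chromosome 2 and 32.3% on chromosome 7 (17.4% of all genes). Chromosome 16 then had 25.5% above, and chromosome 5 had 21.2% below.

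**Figure D4:**
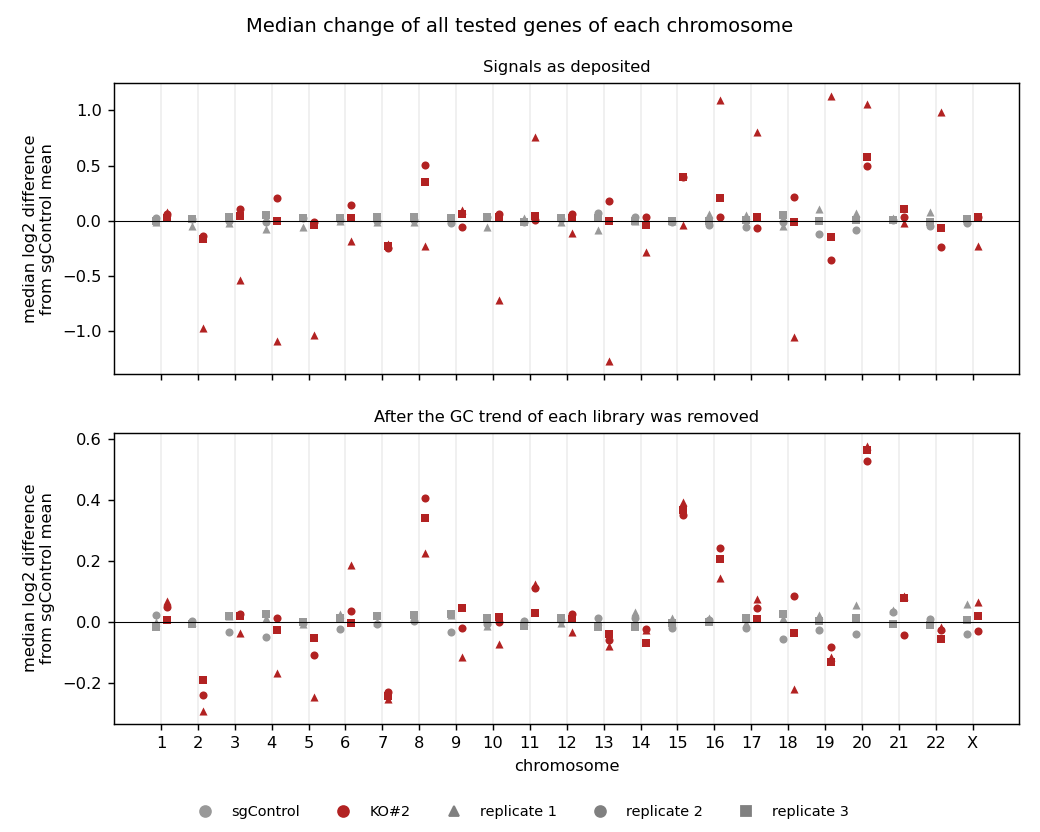
Median difference from the sgControl mean (vertical axis, log2) over all tested genes of each chromosome (horizontal axis), for signals as deposited (upper panel) and after the GC trend of each library was removed (lower panel), with sgControl in grey, KO#2 in red and the shape giving the replicate. In the lower panel the 3 KO#2 libraries lie together on chromosome 20 (0.53 to 0.58), chromosome 15 (0.35 to 0.39) and chromosome 7 (−0.25 to −0.23).

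Within chromosomes the shift was uneven. Along runs of 40 neighbouring tested genes, each sharing 20 with the next, the first 4 runs of chromosome 5, from PLEKHG4B to SNX18, had medians of −1.44 to −0.91 in KO#2 replicate 1, −0.94 to −0.81 in replicate 2 and −1.02 to −0.90 in replicate 3, after removal of the GC trend. In these runs 22 to 26 of 40 genes lay wholly below sgControl as deposited, and 0 above. Without KO#2 replicate 1 there were 22 to 32 below and 0 to 2 above. The next runs of that chromosome came back towards 0. Runs on chromosome 2 between YWHAQ and DGUOK had medians of −0.93 to −0.28, −0.77 to −0.49 and −0.75 to −0.45 in replicates 1, 2 and 3. These genes mark no edge, as the runs on either side were lower too. FAM110C to SMC6 had −0.88, −0.46 and −0.38, and MCEE to AUP1 −0.29, −0.52 and −0.37. Further along, RPIA to C2orf15 had 0.02, −0.03 and −0.15. On chromosome 15 the runs from DENND4A to KIAA1024 had 0.52 to 0.86, 0.55 to 0.60 and 0.50 to 0.70. These runs were chosen after their values were seen and are described, not tested.

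**Figure D5:**
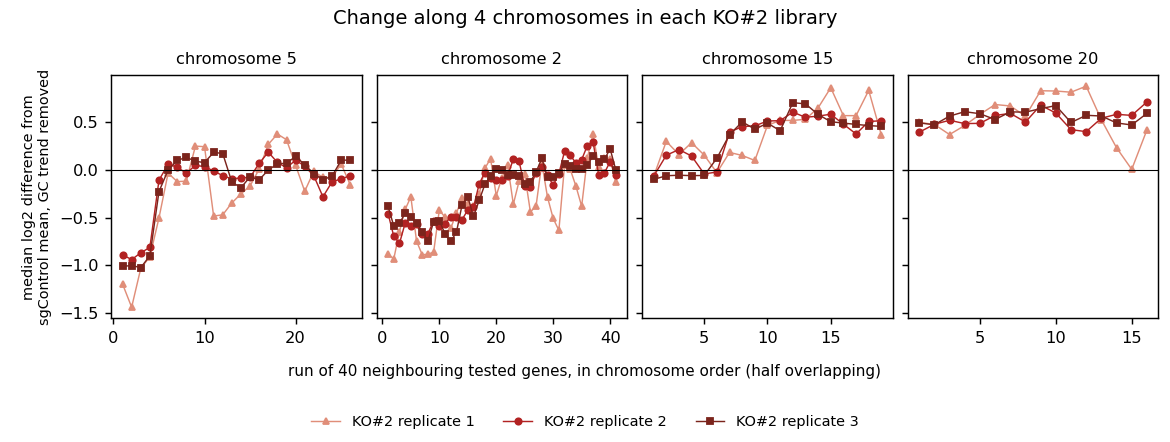
Median difference from the sgControl mean after removal of the GC trend (vertical axis, log2) in runs of 40 neighbouring tested genes (horizontal axis, in chromosome order) on 4 chromosomes, with 1 line for each KO#2 library. The first 4 runs of chromosome 5 lie between −1.44 and −0.81 in all 3 libraries, and the runs of chromosome 20 lie above 0.

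Several genes named above lie in such stretches, and their neighbours' medians stand beside their own change on the same GC-corrected scale, given first for 6 libraries and then without KO#2 replicate 1. LIFR had −5.24 and −4.82, and the 40 nearest tested genes, 20 on each side, had medians of −1.02, −0.85 and −0.95 in KO#2 replicates 1, 2 and 3. DAB2 had −3.39 and −4.13 beside −0.92, −0.82 and −0.90, and SEMA5A −2.69 and −2.46 beside −1.39, −0.84 and −0.96. For LPCAT1 −1.91 and −1.58 stood beside −0.97, −0.81 and −0.94, and for OSMR −1.58 and −1.49 stood beside −1.01, −0.82 and −0.91. All of these genes lie on chromosome 5. TRIB3 had 1.89 and 2.12 beside 0.60, 0.40 and 0.55 on chromosome 20, and AEN had 0.96 and 1.17 beside 0.70, 0.51 and 0.45 on chromosome 15. RPLP1, also on chromosome 15, had 0.93 and 1.18 beside 0.52, 0.60 and 0.71. TNFRSF10B had 0.83 and 1.23 beside 0.11, 0.60 and 0.51 on chromosome 8. On the same chromosome TNFRSF10A had 0.79 and 1.23 beside 0.23, 0.63 and 0.55, and EIF4EBP1 0.87 and 1.20 beside 0.41, 0.53 and 0.41. PLIN3 had −0.95 and −0.82 beside −0.67, −0.62 and −0.43 on chromosome 19. Other genes went against their neighbours. EPCAM rose by 5.39 and 5.76 where its neighbours had −0.94, −0.54 and −0.53, and DYSF rose by 5.33 and 4.95 beside −0.35, −0.50 and −0.52, both on chromosome 2. CDH1 had −3.34 and −3.11 beside 0.46, 0.54 and 0.38, and SALL1, at 0 in KO#2, stood beside 0.47, 0.55 and 0.38, both on chromosome 16. THBS1 had −2.90 and −2.60 beside 0.44, 0.17 and 0.06. ELOVL5 itself had −1.07 and −0.91 on this scale, with neighbours at −0.15, −0.09 and 0.10.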

How the data were processed

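Strand-specific, paired-end RNA sequencing libraries were made from extracted total RNA, per the labels' protocols. The authors deposited 1 table of quantile-normalized total counts per gene for all 9 libraries, used here as signal. All libraries share 1 set of sorted values, so raw depth is unknown and a signal is not a count. For the aligner, counter and strand setting, nothing is stated in the labels or headers. Per the submitters' processing notes the build was the mouse's mm10, while gene names are human, so no coordinates were taken from the table. A RefSeq table of GRCh38.p14 gave chromosome (12331 genes), gene order and promoters, and transcripts gave GC content (12452 of 13017 tested genes, 95.7%).

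Genes whose mean signal in the 6 libraries reached 10 were tested on log2(signal + 1) with limma 3.58.1 in R 4.3.3 (empirical Bayes with a variance trend, two-sided). P-values were adjusted by Benjamini-Hochberg over all genes tested and called under 0.05; the script was first tested on simulated data. KO#2 replicate 1 was left out in a second fit of 5 libraries. The GC trend was a lowess with a span of 0.3. Replicates are numbered in accession order and the numbers pair nothing.

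Named genes were ELOVL5; called genes above the median signal with the largest fold changes (up to 10 each way, and 6 each way called only without KO#2 replicate 1 with groups that do not overlap); up to 4 called members of each list, or the 2 with the largest change; genes at 0 in 1 group with the highest mean in the other (up to 5 each way); and 4 genes with KO#2 replicate 1 on the opposite side. The comparison, lists and tests were chosen with earlier results of these data known. A few genes that these rules name are not reported here.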

Additional observations from a re-analysis of the deposited data

How the results depend on the processing

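Counts are total, higher and lower genes called with 6 libraries, where the fit as reported gave 80, 47 and 33. They were 273, 151 and 122 with all 9 libraries in 3 groups, 325, 136 and 189 with array quality weights, and 501, 229 and 272 with the GC trend removed (chosen after seeing the data). A minimum mean of 1 gave 127, 77 and 50, a minimum of 50 gave 34, 18 and 16, and no minimum gave 43, 25 and 18. Without the variance trend there were 143, 84 and 59, and with a pseudocount of 0.1 there were 46, 28 and 18. Median centring gave 80, a pseudocount of 10 gave 76 and robust moderation gave 79. Leaving out 1 library gave 3 to 535 in all, 3 to 225 higher and 0 to 310 lower. The 535 calls without KO#2 replicate 1 became 1043 with 8 libraries in 3 groups, 341 with a minimum mean of 50 and 352 with no minimum. They became 158 to 504 with 1 sgControl library left out as well. ELOVL5 kept its sign and stayed uncalled under all 17 alternatives (limma adjusted p from 0.0881 to 0.991, log2 fold change from −1.83 to −0.80). Signs turned for MDM2 without KO#2 replicate 3 (−0.073; highest 1.12 with 1 library left out), for IARS without KO#2 replicate 2 or 3 (−0.15 and −0.18; highest 0.98), and for CLDN16 without KO#2 replicate 2 or 3 or sgControl replicate 1 (−0.42, −0.35 and −0.02; highest 1.15). The cause of these changes was not tested. No paired analysis was possible because the labels give no replicate numbers. Depth limits KO#2 replicate 1 most, where a feature with 10 reads has a signal of 55.7.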
